A study of Mus musculus with 8 samples.

Results

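The expression of 8 genes of the thick ascending limb was followed through whole mouse kidney RNA: Slc12a1, Umod, Kcnj1, Bsnd, Casr, Ppp1r1a, Tmem207 and Sostdc1. They were chosen by name, and all 8 were found among the 37583 gene identifiers of each count file. The 4 libraries labelled knockout came from whole kidneys of mice given as Six2Cre+TFAP2Afl/flTFAP2Bfl/WT, with both alleles of Tfap2a and 1 allele of Tfap2b floxed, so that 1 Tfap2b allele was left intact by design. The 4 libraries labelled wildtype came from control littermates given as WT, and the labels do not say whether these carried Cre or floxed alleles. Cre was under Six2, a gene of nephron progenitors, so recombination was aimed at the epithelium from glomerulus to distal tubule, and vessels, interstitium and collecting duct lay outside it. Age, sex and litter were left unstated, and nothing in the labels ties each library to a separate animal, so p-values measure only the spread between these libraries, which may be technical.

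The thick ascending limb reabsorbs salt without water. NKCC2, the product of Slc12a1, brings sodium, potassium and chloride in from the urine; ROMK, encoded by Kcnj1, returns the potassium; and chloride leaves towards the blood through chloride channels that need the subunit barttin, encoded by Bsnd. The resulting voltage drives calcium and magnesium between the cells through claudins, and the calcium-sensing receptor, encoded by Casr, restrains this. The same cells release uromodulin, the product of Umod and the most abundant protein of normal urine. AP-2 beta, the product of Tfap2b, is a transcription factor of the distal nephron.

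The promoters of 3 members are shown because they differ in matches to AP-2, the factor family targeted here, and to HNF1, a transcription factor of kidney epithelium. Promoter windows from RefSeq (GRCm38.p6, 250 bases before to 50 after the start, printed on the gene's strand) existed for 5 members. Each was searched on both strands for the AP-2 consensus GCCNNNGGC, which reads the same on both strands, and for the HNF1 half-site GTTAAT or its reverse ATTAAC, which was added after the sequences were seen. Capitals mark these matches. Umod (chr7:119479213-119479512, minus strand) held 1 AP-2 match starting 40 bases into the transcribed part and 1 HNF1 half-site at position -202. Tmem207 (chr16:26526722-26527021, minus strand) held 1 HNF1 half-site at position 7 and no AP-2 match. Casr (chr16:36562085-36562384, minus strand) held neither, and nor did the windows of Slc12a1 and Kcnj1. The Kcnj1 window (chr9:32393735-32394034, plus strand) lay inside the gene (chr9:32372493-32399197). It therefore covers an internal start and not the annotated beginning of Kcnj1.
Umod: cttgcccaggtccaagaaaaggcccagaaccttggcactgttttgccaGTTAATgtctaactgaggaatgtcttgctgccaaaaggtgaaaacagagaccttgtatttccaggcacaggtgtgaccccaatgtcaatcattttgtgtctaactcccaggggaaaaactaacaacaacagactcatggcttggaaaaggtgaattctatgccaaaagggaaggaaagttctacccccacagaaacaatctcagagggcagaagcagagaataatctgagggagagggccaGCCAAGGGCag
Tmem207: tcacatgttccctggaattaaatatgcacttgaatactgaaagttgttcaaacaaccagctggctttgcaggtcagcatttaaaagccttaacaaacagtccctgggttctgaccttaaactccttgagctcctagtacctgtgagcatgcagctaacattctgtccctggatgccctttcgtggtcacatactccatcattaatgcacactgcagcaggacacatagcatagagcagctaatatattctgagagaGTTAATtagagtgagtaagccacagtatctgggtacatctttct
Casr: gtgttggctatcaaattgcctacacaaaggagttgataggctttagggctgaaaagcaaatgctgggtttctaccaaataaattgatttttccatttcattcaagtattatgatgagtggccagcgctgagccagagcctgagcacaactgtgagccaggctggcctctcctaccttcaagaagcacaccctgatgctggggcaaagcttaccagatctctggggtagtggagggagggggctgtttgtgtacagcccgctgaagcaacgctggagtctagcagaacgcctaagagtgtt
Of all 32851 promoter windows of this length, 16.6% held the AP-2 letters and 7.1% an HNF1 half-site. The AP-2 match in 1 of 5 members is therefore near the share of all windows. The HNF1 half-site, in Umod and Tmem207 of these 5, was more frequent than in all windows, but it was picked after the sequences were seen. A match is a description of letters only.

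Levels are given as CPM, the count scaled to 1000000 reads of a library after TMM normalization. Gene counts totalled 13871861 to 16629301 per library, and 14433 genes passed the filter on low counts, among them all 8 members. The targeted genes were not lower in the libraries labelled knockout: Tfap2a was at 5.65, 3.64, 5.12 and 5.81 CPM across knockout 1 to 4, against 4.08, 4.70, 5.31 and 2.78 CPM across wildtype 1 to 4. The log2 difference was 0.26 (SE 0.24) for Tfap2a and 0.03 (SE 0.22) for Tfap2b, whose levels are given further on. Every direction below therefore rests on the labels alone. Counts per gene also cover any exons that recombination would leave in place. Adrenal transcripts stood out in knockout 2 and wildtype 1 (summed level of 5 genes 911 and 880.2 CPM, at most 11.4 CPM elsewhere), and heat-shock transcripts in knockout 2 and knockout 4 (summed level of 4 genes 744 and 1205 CPM, at most 345 CPM elsewhere). The differences between the groups and the relations with Tfap2b were also computed without the adrenal pair and without the heat-shock pair of libraries. Erythroid transcripts stood out in knockout 1 (summed level of 3 genes 6159 CPM, 103 to 1106 CPM elsewhere). Differences between the groups without knockout 1 alone were computed as well.

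The salt entry and potassium recycling genes were abundant and overlapped between the groups. Slc12a1 (ENSMUSG00000027202, chr2:125152505-125230002 on GRCm38) was at 1971, 2382, 1685 and 2243 CPM across knockout 1 to 4, against 1876, 1411, 1788 and 1615 CPM across wildtype 1 to 4. Knockout 2 and 4 were highest and wildtype 2 was lowest; knockout 3 lay inside the wildtype range. The level was 2070.2 ± 309 CPM under the knockout label and 1672 ± 206 CPM under the wildtype label (SD, n = 4 each), a fold of 1.24 with a 95% interval of 1.00 to 1.53 (edgeR quasi-likelihood test, adjusted p = 0.957). Its unadjusted p from the same edgeR fit was 0.0497. The other salt transport members had smaller differences. Kcnj1 (ENSMUSG00000041248, chr9:32372493-32399197) was at 352, 373, 260.4 and 394 CPM across knockout 1 to 4, against 311, 263, 348 and 307 CPM across wildtype 1 to 4. Here 3 libraries labelled knockout stood above every wildtype library and knockout 3 stood below them all.

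Barttin transcripts followed this order only in part: knockout 2, the highest library for Slc12a1, was below knockout 1 and knockout 4 here. Bsnd (ENSMUSG00000025418, chr4:106483456-106492283) was at 92.9, 76.9, 74.6 and 83.1 CPM across knockout 1 to 4, against 79.4, 58.5, 80.1 and 63.2 CPM across wildtype 1 to 4. Wildtype 2 and 4 were low and knockout 1 was high, and the remaining 5 libraries lay between 74.6 and 83.1 CPM. The log2 difference was 0.22 (SE 0.13, edgeR adjusted p = 0.957), and that of Kcnj1 was 0.17 (SE 0.14, edgeR adjusted p = 0.957). Bsnd was at 0.14 without wildtype 2 and at 0.29 without wildtype 1 or wildtype 3. Kcnj1 was at 0.10 without wildtype 2 or knockout 4 and at 0.28 without knockout 3. None of the 3 salt transport genes passed the test.

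Uromodulin transcripts were the steadiest of the 8. Umod (ENSMUSG00000030963, chr7:119462711-119479282) was at 4806, 5006, 4110 and 4175 CPM across knockout 1 to 4, against 4236, 3562, 4041 and 4039.5 CPM across wildtype 1 to 4. All libraries labelled knockout were above the wildtype mean, but knockout 3 and 4 lay below wildtype 1. The fold was 1.14 with a 95% interval of 0.96 to 1.35 (edgeR adjusted p = 0.957). This gene alone took 0.342% to 0.520% of all gene counts in a library. Its within-group SD was 0.13 on the log2 scale, smaller than that of most tested genes, since 15.97% of them had a smaller one.

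Casr was the 1 member with a negative difference. Casr (ENSMUSG00000051980, chr16:36493696-36562141) was at 19.7, 29.6, 27.9 and 37.9 CPM across knockout 1 to 4, against 27.9, 44.4, 36.2 and 46.9 CPM across wildtype 1 to 4. No library labelled knockout reached the wildtype mean of 38.8 CPM, yet wildtype 1 matched knockout 3 and lay below knockout 2 and 4. The levels were 28.8 ± 7.45 and 38.8 ± 8.61 CPM (SD, n = 4 each), a fold of 0.741 with a 95% interval of 0.537 to 1.02 (edgeR adjusted p = 0.957). The lowest library had 311 Casr reads, for which counting error alone is 5.67%, against a spread of 25.9% and 22.2% between libraries of a group. The log2 difference of -0.43 (SE 0.21) was -0.29 without knockout 1 and -0.71 without both heat-shock libraries.

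The regulator Ppp1r1a, which encodes inhibitor-1 of protein phosphatase 1, resembled the salt transport genes. Ppp1r1a (ENSMUSG00000022490, chr15:103530279-103538003) was at 184, 173, 125 and 151 CPM across knockout 1 to 4, against 164, 111, 148 and 115 CPM across wildtype 1 to 4. Knockout 1 and 2 exceeded every wildtype library, and wildtype 2 and 4 were the lowest of all. Sostdc1, which encodes a secreted antagonist of BMP and Wnt signals (ENSMUSG00000036169, chr12:36314139-36318452), was at 129, 128, 92.9 and 119 CPM across knockout 1 to 4, against 114, 73.2, 103 and 128 CPM across wildtype 1 to 4. Wildtype 2 stood lowest, and wildtype 4 was as high as the highest knockout libraries. The log2 differences were 0.24 (SE 0.16) for Ppp1r1a and 0.17 (SE 0.17) for Sostdc1 (edgeR adjusted p = 0.957 for each). Single libraries moved both. Ppp1r1a was at 0.16 without knockout 1 and also without wildtype 2, at 0.33 without knockout 3 and at 0.35 without wildtype 1. Sostdc1 was at 0.03 without wildtype 2, 0.26 without knockout 3 and 0.28 without wildtype 4.

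Tmem207, a membrane protein gene of this segment, varied most. Tmem207 (ENSMUSG00000091972, chr16:26503656-26526769) was at 24.5, 59.3, 23.4 and 44.4 CPM across knockout 1 to 4, against 51.0, 23.7, 33.0 and 31.4 CPM across wildtype 1 to 4. Within each group the highest library had more than double the level of the lowest, with a 2.53-fold range over all 8. Its within-group SD of 0.56 on the log2 scale was larger than that of 91.9% of tested genes. On the log2 scale the groups differed by 0.13, with SE 0.33 and a 95% interval of -0.63 to 0.88 (edgeR adjusted p = 0.974). It was -0.18 without knockout 2, -0.02 without wildtype 2 and -0.54 without both heat-shock libraries, so its sign rested on single libraries; without wildtype 1 it was 0.37.

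**Figure D1:**
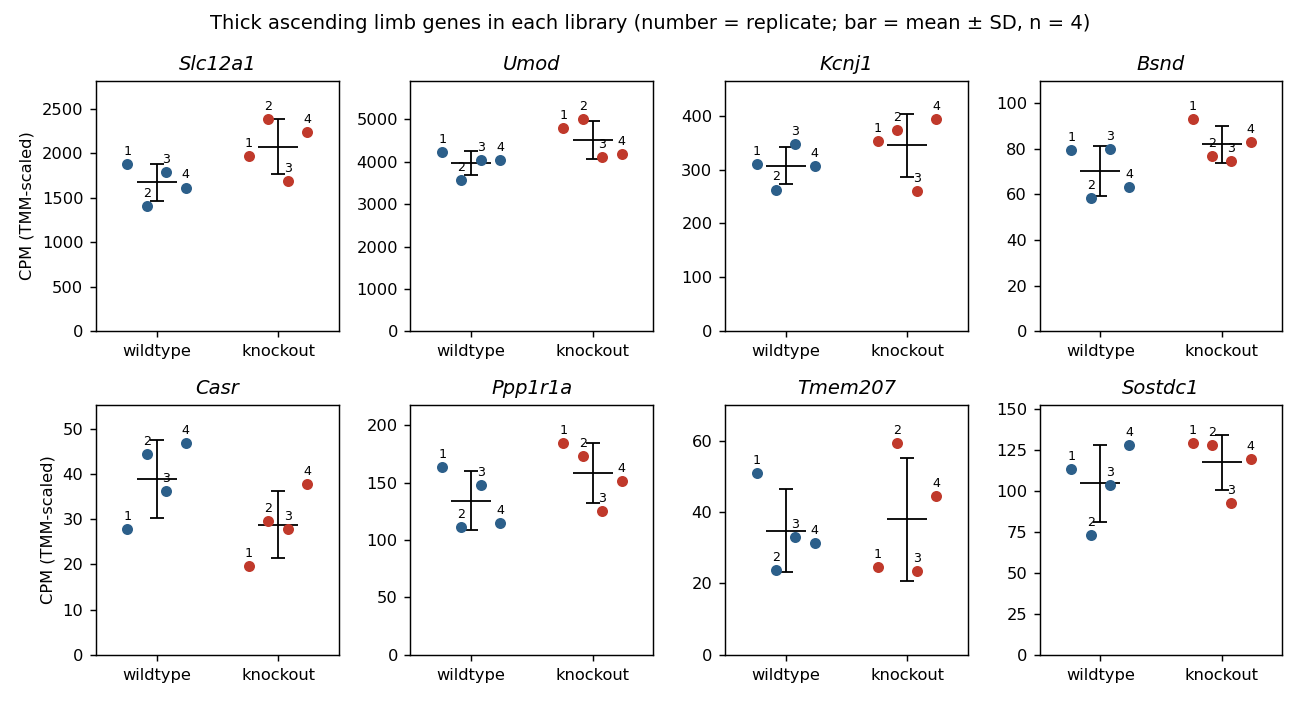
Level of each of the 8 genes in CPM (vertical axis, from 0) in the 4 libraries labelled wildtype (blue) and the 4 labelled knockout (red); numbers are replicates and bars are mean ± SD. The groups overlap for every gene, Casr is the gene with a lower mean in the libraries labelled knockout (28.8 against 38.8 CPM), and knockout 3 lies among the wildtype libraries or below them for most genes.

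Across the 8 members, 7 differences were positive and 1 was negative, where 51.3% of all tested genes were positive. None passed the edgeR test at an adjusted p under 0.05, as for all 14433 genes (0% called), and DESeq2 and limma-voom called 0 members too, although DESeq2 called 4 genes in all. At an unadjusted edgeR p under 0.05 there was 1 member, Slc12a1, where 4.00% of all genes reached this (2.17% higher and 1.84% lower in the libraries labelled knockout); limma-voom gave 0 members and DESeq2 1. For 0 members were the groups free of overlap, against 1.97% of tested genes (1.03% higher and 0.942% lower). The median log2 difference of the members was 0.18, and that of all tested genes was 0.01. The members varied together, so their signs are not independent. Other lists also leaned positive: 4 of 4 intercalated cell genes (median 0.23), 4 of 4 endothelial (0.28), 4 of 5 thin limb and inner medulla (0.26). The same held for 4 of 5 principal cell (0.06) and 3 of 4 distal convoluted tubule genes (0.11), but only 1 of 6 proximal tubule genes was positive (-0.14). These counts describe genes chosen with earlier results known. Without both heat-shock libraries 5 of 8 members were positive, and Slc12a1 and Kcnj1 were at 0.13 and -0.01. Without both adrenal libraries 7 of 8 members were positive. In whole kidney, fewer cells of a type and less RNA per cell cannot be told apart.

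**Figure D2:**
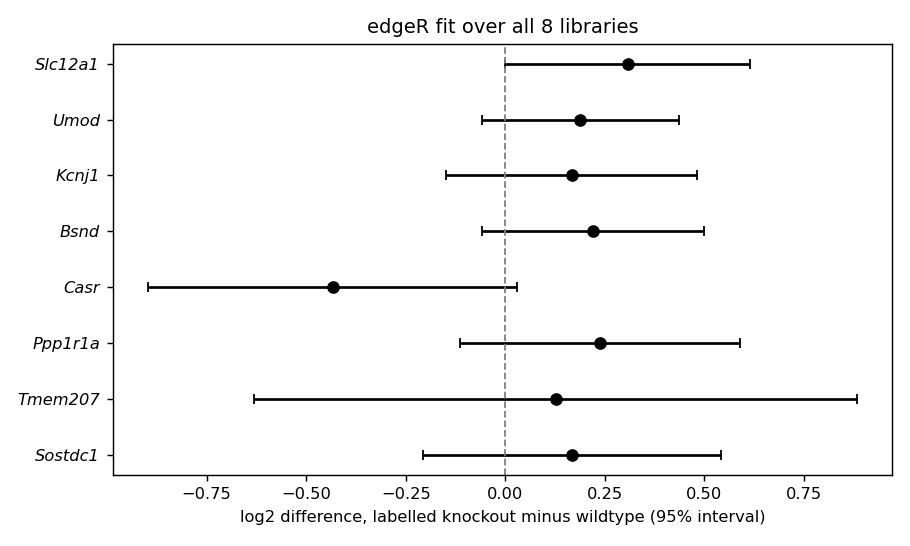
Log2 difference of each gene, labelled knockout minus wildtype (horizontal axis), with its 95% interval from the edgeR fit over 8 libraries; the dashed line is 0. Slc12a1 is at 0.31, Casr is at -0.43 and the interval of Tmem207, from -0.63 to 0.88, is the widest.

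Per length of exon, the members formed a ladder of levels that was alike in both groups. Over 8 libraries Umod was at 1537 ± 166 CPM per kilobase of exon, Slc12a1 at 325 ± 56.0, Ppp1r1a at 112 ± 20.8 and Kcnj1 at 97.8 ± 14.7 on the same scale (SD, n = 8). Sostdc1 was at 62.3 ± 11.2, Bsnd at 27.6 ± 3.97, Tmem207 at 13.5 ± 5.08 and Casr at 7.17 ± 1.95 CPM per kilobase (SD, n = 8). Umod was above Slc12a1, and Slc12a1 above Ppp1r1a, without overlap. The ranges of Ppp1r1a and Kcnj1 overlapped, with Ppp1r1a higher in 6 of 8 libraries, and these neighbours did not differ beyond their spread. The ranges of Tmem207 and Casr also overlapped, with Tmem207 higher in 7 of 8 libraries. The ranges of Bsnd and Tmem207 overlapped as well, although Bsnd was higher in 8 of 8.

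**Figure D3:**
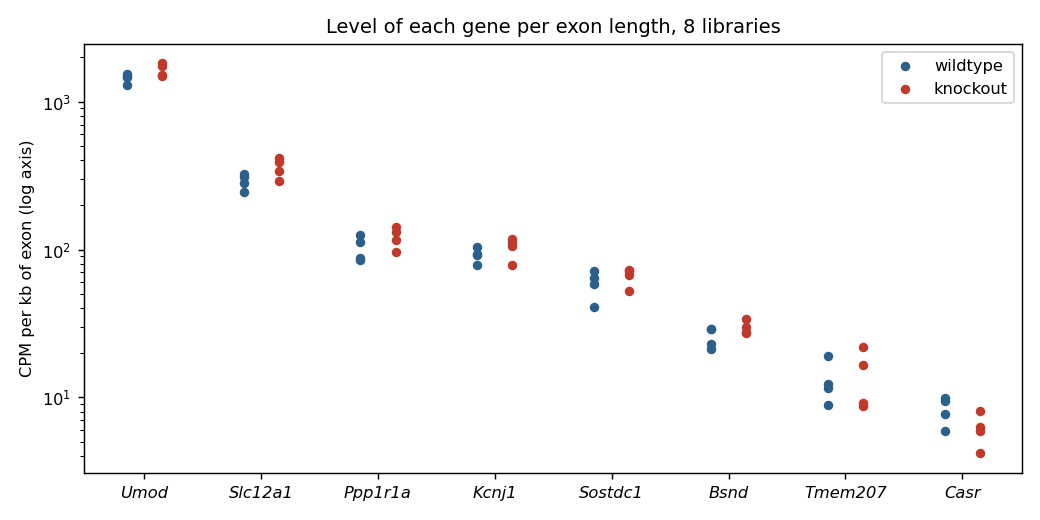
Level of each gene in CPM per kilobase of exon (vertical log axis), 1 point per library, wildtype in blue and knockout in red. Umod is highest at 1537 CPM per kilobase on average and Casr lowest at 7.17, and Ppp1r1a and Kcnj1 overlap.

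Relative to Slc12a1 in the same library, a measure free of library scaling, Casr showed the largest difference. Slc12a1 itself had the largest positive difference of the members (0.31), which shifts every ratio towards negative values. Casr had 10.01, 12.4, 16.6 and 16.9 reads per 1000 Slc12a1 reads across knockout 1 to 4, against 14.9, 31.5, 20.3 and 29.0 across wildtype 1 to 4. Only wildtype 1 lay within the knockout range. The log2 difference was -0.75, with an exact two-sided permutation p = 0.0857 (adjusted p = 0.4 over 7 ratios; the smallest p that 70 arrangements allow is 0.0286). With 1 library left out at a time it ran from -0.95 (without wildtype 1) to -0.59 (without wildtype 2). Kcnj1 had 155 to 179 reads per 1000 Slc12a1 reads in the libraries labelled knockout and 166 to 194 in those labelled wildtype (log2 difference -0.15, exact permutation adjusted p = 0.4). Umod had 1861 to 2439 reads per 1000 Slc12a1 reads in the libraries labelled knockout and 2258 to 2525 in those labelled wildtype (log2 difference -0.12, exact permutation adjusted p = 0.629). The ratios of Bsnd, Ppp1r1a, Tmem207 and Sostdc1 differed by -0.24 to -0.06 on the log2 scale, and none passed. With the mean of the other members except Casr as reference, Casr was at -0.64 (exact permutation p = 0.114, adjusted p = 0.8). Against that reference the remaining members ran from -0.15 (Tmem207) to 0.05 (Ppp1r1a).

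The members varied together from library to library, across the labels. Ordered by the mean of the 8 deviations, knockout 2 (0.25 on the log2 scale) and knockout 4 (0.18) came first and knockout 3 (-0.21) and wildtype 2 (-0.29) last. In knockout 2 and knockout 4, 7 of 8 members were above their own mean; in knockout 3 none was, and in wildtype 2 only Casr was. Of the 28 pairs of members, 22 had a positive Pearson's r over the 8 libraries, with a median of 0.64. Slc12a1 and Kcnj1 gave r = 0.86 and rho = 0.88 (exact permutation p = 0.00675 and 0.00724, adjusted p = 0.0630 and 0.0507 over 28 pairs), and r = 0.80 without the 2 libraries farthest from the median of Slc12a1. Umod and Ppp1r1a gave r = 0.84 and rho = 0.95 (exact permutation p = 0.00516 and 0.00114, adjusted p = 0.0630 and 0.0319), and r = 0.78 without the 2 farthest libraries. Slc12a1 and Umod gave r = 0.82 and rho = 0.90 (exact permutation p = 0.0131 and 0.00456, adjusted p = 0.0861 and 0.0507), but r = 0.42 without knockout 2 and wildtype 2, so this relation rested on those libraries.

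Casr ran against several of the others. With Bsnd it gave r = -0.79 and rho = -0.57 (exact permutation p = 0.0194 and 0.151, adjusted p = 0.0905 and 0.235 over 28 pairs), and r = -0.51 without the 2 farthest libraries. With Umod it gave r = -0.72 and rho = -0.74 (exact permutation p = 0.0478 and 0.0458, adjusted p = 0.0957 and 0.134), and r = -0.84 without knockout 2 and wildtype 2. None of the 28 Pearson relations passed after adjustment, and 14 had an unadjusted exact permutation p under 0.05. The matching share and median r for pairs of other genes were not computed, so whether the members stand out in this was not tested.

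**Figure D4:**
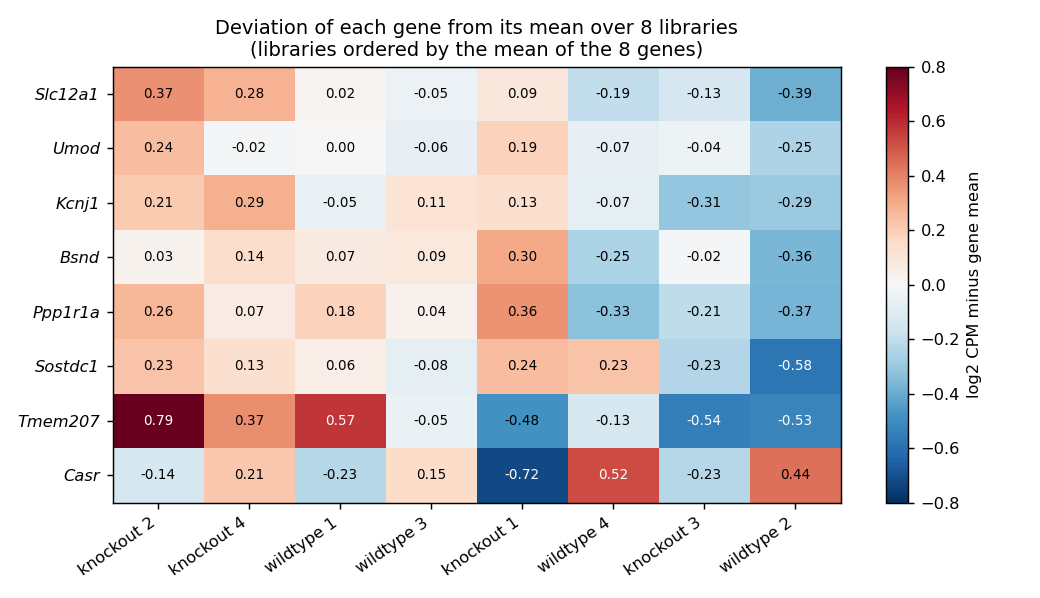
Deviation of each gene from its own mean log2 CPM (colour and number) in each library; libraries run from the highest to the lowest mean over the 8 genes. Knockout 2 is mostly red and wildtype 2 mostly blue, Casr is red (0.44) where the other genes are blue in wildtype 2, and Tmem207 spans -0.54 to 0.79.

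Markers of other cell types differed between the libraries in several ways. The summed level of 5 principal cell genes was 1010, 932, 531 and 1070 CPM in knockout replicates 1, 2, 3 and 4, and ran from 522 CPM (wildtype 2) to 669 CPM (wildtype 1) under the wildtype label. Aqp2, the water channel of these cells, made up most of the highest sum (763 CPM in knockout 4). Aqp3 was also highest of all 8 libraries there (195 CPM), whereas Scnn1g (46.8 CPM), Scnn1b (44.8 CPM) and Fxyd4 (19.98 CPM) were lowest. The mean log2 deviation of the 5 genes was highest in knockout 1 (0.36), where the members were at 0.01, and was 0.03 in knockout 4, where the members were high. The 4 distal convoluted tubule genes did not follow the members: they summed to 1028 and 931 CPM in knockout 2 and 4 and to 1038 and 1034 CPM in knockout 3 and wildtype 2 (931 to 1265 CPM under the knockout label, 825 to 1368 CPM under the wildtype label). The summed level of 5 thin limb and inner medulla genes was 1429 to 1809 CPM under the knockout label and 1284 to 1510 CPM under the wildtype label. Most of this sum was Aqp1 (mean 1391 and 1177 CPM), so it mainly follows that gene. Slc14a2, for example, had means of only 58.7 and 48.9 CPM. The 6 proximal tubule genes summed to 8399 to 12192 CPM and 8656 to 12207 CPM, with high values in knockout 3 and wildtype 2 (12192 and 11971 CPM) and low values in knockout 1, knockout 2 and wildtype 1. The 4 intercalated cell genes summed to 185 to 265 CPM and 145 to 258 CPM. The 4 endothelial genes summed to 266 to 273 CPM under the knockout label and 210.3 to 232 CPM under the wildtype label, without overlap. All genes of these 6 lists had counts, and the part of the cell types in the members' levels was not tested.

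Tmem207 followed Tfap2b, the factor with 1 floxed allele, irrespective of the label. Tfap2b was at 69.2, 103, 58.0 and 89.4 CPM across knockout 1 to 4, against 100.4, 51.8, 74.6 and 86.3 CPM across wildtype 1 to 4. The 3 libraries with the most Tfap2b, knockout 2, wildtype 1 and knockout 4, were also the 3 with the most Tmem207, in that order. Over 8 libraries r was 0.92 and rho 0.95 (exact permutation p = 0.00218 and 0.00114, adjusted p = 0.0349 and 0.0183 over the 16 relations of the members with Tfap2a and Tfap2b). Without the 2 libraries farthest from the Tfap2b median r was 0.93; without both adrenal libraries it was 0.85, and without both heat-shock libraries 0.89. Within the libraries labelled knockout r was 0.97 and within those labelled wildtype 0.90 (n = 4 each, given as description). This relation was chosen after the values were seen, and 0.431% of 13679 genes with a mean of at least 1 CPM had a higher r with Tmem207 than Tfap2b had.

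Of the other members none passed after adjustment. Slc12a1 gave r = 0.73 and rho = 0.71 with Tfap2b (exact permutation p = 0.0425 and 0.0576, adjusted p = 0.227 and 0.307), and r = 0.40 without knockout 3 and wildtype 2. Within the labels Slc12a1 gave r = 0.99 (knockout) and 0.85 (wildtype), and with group means removed r = 0.91, as Tmem207 did, so by that measure the relation was not particular to Tmem207. Sostdc1 gave r = 0.79 and rho = 0.48 (exact permutation p = 0.0165 and 0.243, adjusted p = 0.132 and 0.556), and r = 0.12 without those libraries. Casr gave r = -0.07 and rho = -0.10 (exact permutation p = 0.871 and 0.840, adjusted p = 0.929 and 0.882), and r = 0.25 without those libraries. None of the 8 relations with Tfap2a passed, the nearest to the threshold being Bsnd at r = 0.55 and rho = 0.71 (exact permutation p = 0.152 and 0.0576, adjusted p = 0.365 and 0.307), with r = 0.46 without the 2 farthest libraries. Whether the difference between members in their relation to Tfap2b exceeds chance was not tested.

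**Figure D5:**
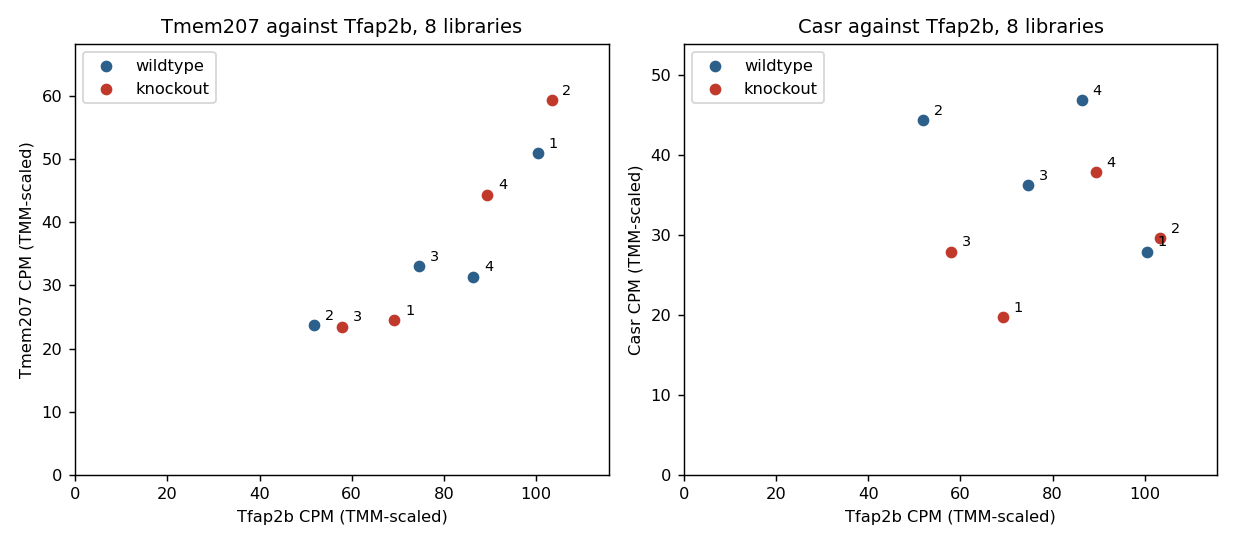
Level of Tmem207 (left) and Casr (right) against that of Tfap2b, all in CPM from 0, 1 point per library, numbers being replicates. Tmem207 is highest (59.3 CPM) where Tfap2b is highest (103 CPM, knockout 2) and the colours mix along the trend, while Casr shows no such order.

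The genes whose levels were most like each member's, by Pearson's r of log2 CPM over 8 libraries among 13679 genes, are given as a description. Slc12a1 was nearest to Dhrs7 (r = 0.98) and Abhd6 (r = 0.97), a lipid hydrolase gene. Umod was nearest to Hey1 and Ephb3 (r = 0.96 each), a Notch target and an ephrin receptor. For Kcnj1 they were Tmem45a and Arl2bp (r = 0.95 each), for Bsnd the genes Bag4 (r = 0.97) and Havcr1 (r = 0.96), which encodes the tubular injury marker KIM-1, and for Ppp1r1a the genes P3h4 and Nat14 (r = 0.98 each). Sostdc1 was nearest to Psca (r = 0.97) and Gsdmc3 (r = 0.96). Tmem207 was nearest to Cep95 and Myo19 (r = 0.98 each), and Casr to Usp47 and 4932438A13Rik (r = 0.99 each). With 8 libraries and so many genes, values this high carry no p.

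Casr also varied with genes that were long. With Casr, 302 genes had r above 0.9, and those with an annotated length had a median of 8042 bases of exon, against 4403 bases over all genes with a mean of at least 1 CPM; the 237 genes with r below -0.9 had a median of 2181 bases. For the other members the genes with r above 0.9 numbered 30 to 114, with medians of 2315 to 5785 bases. Libraries differed in this respect: in knockout 1, which had the least Casr, the 2680 genes with the least exon (at most 2433 bases) had a median deviation of 0.21 on the log2 scale and those with the most (at least 7584 bases) of -0.14, whereas in wildtype 4, with the most Casr, these values were -0.06 and 0.06. Knockout 1 also had the largest share of reads that counting assigned to no annotated feature, 16.2% against 11.6% to 14.5% elsewhere. With the length trend of each library removed, a step added after seeing the data, the log2 difference of Casr was -0.43 (SE 0.20, edgeR adjusted p = 0.966). Casr has 4718 bases of exon, near the median of all genes, so its trend values were only -0.024 to 0.017 on the log2 scale. This step could therefore hardly move Casr, and it cannot show whether its difference depends on the trend. The difference of Ppp1r1a, the member with the least exon, went from 0.24 to 0.17. RNA quality as such was not tested.

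The lists that follow were counted over whole kidney, so their levels take in every segment that expresses these genes. Among 10 ion transport partners, 5 differences were positive and 5 negative, and 0 passed the edgeR test in either direction (median 0.03, against 0.01 for all genes). Atp1b1, which encodes a beta subunit of the sodium pump, differed by 0.09 (SE 0.10; edgeR adjusted p = 0.957). Without both heat-shock libraries 3 of the 10 were positive. Of 5 claudins 4 were tested, with 3 positive and 0 passed. Cldn16, which carries magnesium and calcium with Cldn19, was at 13.6 to 21.4 CPM under the knockout label and 11.4 to 16.2 CPM under the wildtype label. Cldn10, counted over all its transcripts in whole kidney, differed by -0.18 (SE 0.12), Cldn19 by 0.04 (SE 0.12) and Cldn3 by 0.10 (SE 0.16).

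Regulators of NKCC2 had 6 positive and 4 negative differences among 10, and 0 passed (median 0.03). Wnk1 and Stk39, kinase genes of the cascade that phosphorylates the cotransporter, differed by -0.21 (SE 0.10) and 0.21 (SE 0.12); Wnk4 was at 0.01 (SE 0.13). Maged2, whose loss causes a transient antenatal Bartter syndrome, differed by 0.25 (SE 0.14). Of 10 hormone signalling genes 9 were tested, 8 were positive and 0 passed (median 0.15). Ptger3, a prostaglandin E2 receptor of the medullary limb, was at 85.8, 94.0, 65.9 and 107 CPM across knockout 1 to 4, against 73.2, 64.0, 60.2 and 70.9 CPM across wildtype 1 to 4. Knockout 3 again lay in the wildtype range and the other 3 above it (log2 difference 0.39, SE 0.14; edgeR adjusted p = 0.957, unadjusted p = 0.0186). Ppp1r1b, which encodes DARPP-32, a relative of inhibitor-1, differed by 0.35 (SE 0.19), the phosphatase subunit gene Ppp1cb by 0.16 (SE 0.12), and Pth1r, the parathyroid hormone receptor, by -0.26 (SE 0.18).

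In the list of uromodulin processing and segment identity, 6 of 12 were positive, 6 negative and 0 passed (median 0.03). Hpn, the protease that releases uromodulin, differed by -0.10 (SE 0.12), and Egf by 0.07 (SE 0.12). The nuclear receptor genes Esrrb and Esrrg went opposite ways, at 0.55 (SE 0.26) and -0.17 (SE 0.09). Esrrb was at 42.4, 75.4, 38.3 and 70.4 CPM across knockout 1 to 4, against 55.4, 28.5, 35.1 and 36.0 CPM across wildtype 1 to 4, highest in knockout 2, knockout 4 and wildtype 1 as Tmem207 was. Muc1, a kidney disease gene like Umod, differed by 0.39 (SE 0.20). Of 9 partners of Sostdc1 in BMP and Wnt signalling 8 were tested, 3 were positive and 0 passed (median -0.05); without knockout 1, 5 were positive. Grem1, another BMP antagonist, was at 0.45 to 15.97 CPM under the knockout label and 0.44 to 3.62 CPM under the wildtype label (log2 difference 2.05, SE 1.05; edgeR adjusted p = 0.957). The receptor genes Bmpr2 and Bmpr1a differed by -0.51 (SE 0.32) and -0.02 (SE 0.09), and the Wnt co-receptor family genes Lrp4 and Lrp6 by 0.17 (SE 0.12) and -0.10 (SE 0.15).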

How the data were processed

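The 8 deposited files hold whole-number counts of reads per gene, without normalization, made by the authors. Per the submitters' processing notes STAR, HTSeq and edgeR were used on mm9. The sources used here do not give versions or annotation. Per the file names strand was ignored, so reads of antisense neighbours (Gm14002 of Slc12a1, with 90 reads in all) could not be told apart. Libraries were made from 200 ng of total RNA with 15 PCR cycles, per the labels. Lines naming no gene were kept out; reads without a unique place were 15.8% to 20.9%. Identifiers were matched to GENCODE M21 on GRCm38 (32860 of 37583), which also gave positions and exon lengths; no mm9 coordinate was converted.

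Members and gene lists were chosen with earlier results of these data known. Named genes were the members, per list up to 3 with the lowest p and 2 most abundant, and per member the 2 most alike genes. Some genes that this rule names are not reported here. edgeR 4.0.16 (R 4.3.3; TMM, filterByExpr with minimum count 10 and total 15, robust quasi-likelihood test, genotype alone) was fitted to all genes, with Benjamini-Hochberg adjustment at 0.05. CPM use TMM-scaled sizes, and log2 CPM a prior count of 2. Intervals are 95% intervals of the fit. Ratios and relations used exact two-sided permutation over 70 arrangements or 40320 pairings. Library pairs differed by 10.8 to 85.5 times sampling noise (chi-square per gene), so none was a copy. The fits were tested on simulated data. Alternatives were other normalizations, no filter, DESeq2 1.42.0, limma-voom 3.58.1, leaving out each library, and a replicate block; fits without the adrenal or heat-shock libraries, the length offset and the Tfap2a and Tfap2b relations were added after seeing the data.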

Additional observations from a re-analysis of the deposited data

Results flagged for a closer look

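Among 30 group-wise checks of the members (CPM, and reads per 1000 Slc12a1 reads, in each group of 4 libraries), 1 library stood apart from its group. Sostdc1 had 65.6 reads per 1000 Slc12a1 reads in knockout 1, against 53.7, 55.1 and 53.2 in knockout 2, 3 and 4, a gap to the nearest of 0.844 of the group's range. Chance alone puts about 1 in 20 such groups past this limit.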

How the results depend on the processing

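Under 18 alternatives 0 members passed the test in any, and of 144 recomputed member differences 140 kept their sign. Tmem207 was at -0.18 without knockout 2, at -0.02 without wildtype 2 and at -0.54 without both heat-shock libraries, and Kcnj1 was at -0.0055 without the latter pair; without 1 library Tmem207 ranged from -0.18 to 0.37; the cause was not tested. Of 84 recomputed ratio differences, 75 kept their sign and none passed. Some used the mean of the other members except Casr as reference, and those of the replicate block equal the main differences by construction. That none passed carries little weight, since few arrangements of the libraries exist. Without wildtype 1, Casr had an exact permutation p = 0.0286 but an adjusted p = 0.2. In the replicate block, and without both adrenal or both heat-shock libraries, no ratio could reach a p under 0.05. Without both heat-shock libraries the ratio differences were 0.0337 for Umod, 0.125 for Bsnd and 0.0644 for Ppp1r1a; without both adrenal libraries 0.0295 for Bsnd and 0.0053 for Ppp1r1a; against the mean of the other members except Casr 0.0382 for Bsnd and 0.0534 for Ppp1r1a; without knockout 2, 0.0245 for Bsnd; and without wildtype 4, 0.0024 for Sostdc1. With 1 library left out at a time these 2 ratios ranged from -0.158 to 0.0245 and from -0.202 to 0.0024. Same-numbered libraries of the groups shared only a number: their deviations correlated at 0.226, -0.23, 0.282 and 0.293, and knockout 2 and 3 did not correlate best with their own number. With the replicate block 0 genes passed, 1075 genes had an unadjusted p under 0.05 against 578 without it, and Casr was at -0.44 (edgeR adjusted p = 0.654, unadjusted p = 0.000996). Without 1 library, Slc12a1 ranged from 0.23 to 0.39 and Casr from -0.59 to -0.29. Over the whole table DESeq2 called 4 genes, none of them a member. Depth did not limit the members, whose counting error was at most 5.67%, below their spread.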
